A study of Rattus norvegicus with 54 samples.

Results

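The genes described here are 10 members of the cytosolic chaperone system that were chosen by name. They comprise 4 small heat shock protein genes (Hspb1, Hspb6, Hspb7 and Cryab), 3 HSP70 genes (Hspa1a, Hspa1b and Hspa8), the inducible HSP90 gene Hsp90aa1, and 2 co-chaperone genes (Dnajb1 and Bag3). Symbols were matched in the count tables, which list 40319 genes. A row was found for 9 of the 10, and Hspa1a was not analysed here. RNA came from hearts of female athymic F344/NJcl-rnu/rnu rats that were operated on at an age of 8 weeks and sampled 1 week later. The 3 treatments, with 6 animals each, were sham surgery without treatment (Sham), ligation of the left anterior descending artery without treatment (MI), and the same ligation followed by a bi-level sheet of human smooth muscle cells and endothelial progenitor cells on the heart (MI+Cell Sheet). From each left ventricle, polyadenylated RNA of the infarcted anterior wall, the bordering lateral wall and the remote septum was sequenced, giving 54 libraries. Athymic rats lack functional T cells but keep other leukocytes, so that all 9 groups share this immune background. Reads were aligned to the rat assembly, and human transcripts of the sheet were not analysed here.

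Heat shock proteins keep other proteins folded. Small heat shock proteins bind unfolding clients and hold them soluble, and in the heart αB-crystallin (Cryab), Hspb6, Hspb7 and Hspb1 sit largely on sarcomeres and the desmin and actin cytoskeleton. HSP70 proteins refold such clients in cycles of ATP binding that J-domain proteins such as Dnajb1 start and nucleotide exchange factors such as Bag3 end, and HSP90 acts later on kinases and receptors. Bag3 also couples HSP70 to small heat shock proteins in the autophagic removal of damaged Z-disc proteins, and its loss causes cardiomyopathy. After protein damage, heat shock factor 1 raises many of these genes through heat shock elements, which are inverted repeats of GAA in the promoter.

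Promoter stretches are shown for the members that had a match, because such elements are the textbook control of this family. RefSeq sequences (GRCr8) running from 250 bases before to 50 bases after the start were found for 7 of the 10 members, namely Hspb1, Hspb6, Hspb7, Hspa1a, Hspa8, Dnajb1 and Bag3. A 3-unit element (3 alternating repeats of GAA and its complement TTC, each set apart by 2 bases, read on both strands) occurred in 0.798% of all 33469 promoter windows of that length and in 1 of the 7 members, Hspa8, with 2 matches. A 2-unit element (GAANNTTC or TTCNNGAA, both palindromic and also counted inside 3-unit matches) occurred in 15.9% of windows and in 5 of the 7 members. Hspb7 and Hspa1a held neither string in this window. Stretches before the start are printed 5′ to 3′ along each gene, with the matches in capitals.
Hspa8 (chr8:50080281-50080491, plus strand): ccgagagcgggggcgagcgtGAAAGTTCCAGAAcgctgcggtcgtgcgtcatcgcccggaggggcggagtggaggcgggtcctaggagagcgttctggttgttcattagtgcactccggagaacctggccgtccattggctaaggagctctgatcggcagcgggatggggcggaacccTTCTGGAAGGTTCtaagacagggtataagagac
Hspb1 (chr12:26432383-26432450, minus strand): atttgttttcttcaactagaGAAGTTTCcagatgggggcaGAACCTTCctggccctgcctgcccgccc
Hspb6 (chr1:94934122-94934250, plus strand): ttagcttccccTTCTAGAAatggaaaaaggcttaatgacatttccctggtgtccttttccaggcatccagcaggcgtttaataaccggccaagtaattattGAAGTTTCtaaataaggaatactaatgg
Dnajb1 (chr19:41431142-41431172, minus strand): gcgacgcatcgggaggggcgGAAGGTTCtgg
Bag3 (chr1:192533308-192533355, plus strand): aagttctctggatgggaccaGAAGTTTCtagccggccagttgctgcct
The first and last 2-unit matches of Hspa8 began 213 and 50 bases before the start, the last inside its second 3-unit match. The matches of Hspb1 began 129 and 109 bases before the start, those of Hspb6 239 and 149, that of Bag3 132 and the one printed for Dnajb1 11. The Dnajb1 window held 2 such matches, of which the other did not lie wholly before the start and is not printed. These are matches of letters only.

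Counts on genes ranged from 12699204 to 23397754 per library. A cardiomyocyte score (mean log2 CPM of 12 marker genes such as Myh6 and Tnnt2, all with a mean of at least 10 counts in every group) lay at 12.5 to 12.9 in 5 of the 6 Sham hearts in every zone. In Sham replicate 5 it was 11.17 in the infarct, 11.02 in the border and 11.8 in the remote zone, beside macrophage scores (8 of 8 markers detected in every group) of 7.30, 7.28 and 6.97, against at most 5.25 in the other Sham libraries. The border zone library of MI+Cell Sheet replicate 1 had a cardiomyocyte score of 4.33, with 9.90 to 11.4 in the other 5, and that animal's remote zone stood at 11.2 against at least 12.1. These animals stand apart from their groups, and the values without them are given where they change a result. Median cardiomyocyte scores of the infarct zone were 12.69 in Sham, 10.15 in MI and 8.13 in MI+Cell Sheet. In a mixed tissue, fewer cells of a type and less RNA per cell cannot be told apart.

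**Figure D1:**
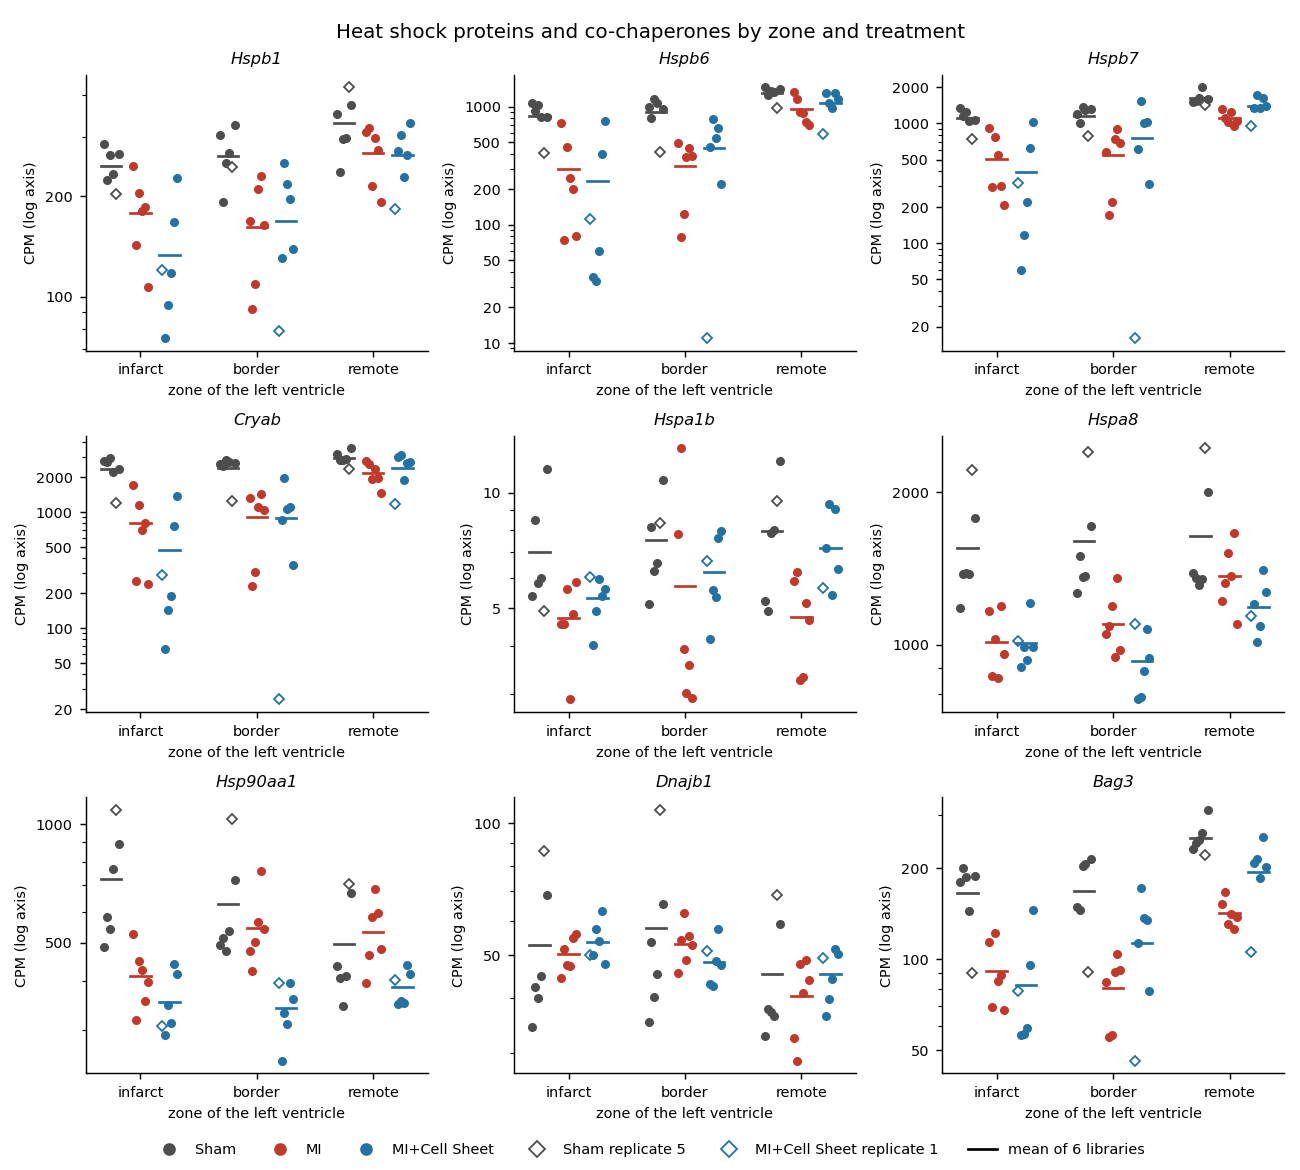
Level of each of the 9 members in every library (CPM, normalised counts scaled with TMM factors, log axis) by zone and treatment, with bars at the mean of 6 libraries and open diamonds for the animals that stand apart. In the remote zone the 6 MI libraries of Bag3 and of Hspb7 lie below all 6 Sham libraries, and in the border zone the MI+Cell Sheet libraries of Hsp90aa1 lie below all MI libraries.

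The first comparison asked how infarction without treatment altered these genes in each zone. In the infarct zone 7 of the 9 members measured were lower in MI than in Sham and none was higher (edgeR quasi-likelihood test, adjusted p under 0.05), where 27.2% of the 15758 genes tested were lower and 22.7% higher. Border zones had 6 members lower and none higher, against 23.2% of genes lower and 18.4% higher. Remote zones had 3 members lower and none higher, against 14.2% of genes lower and 11.7% higher. Over the members, the median log2 difference was -0.83 in the infarct, -0.70 in the border and -0.42 in the remote zone, and over all genes tested it was -0.02, -0.02 and -0.04. Without Sham replicate 5, the numbers of members lower were 8, 6 and 5, while 30.7%, 28.9% and 22.8% of genes were lower.

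The scale of these differences depends on the normalization. With library size alone, the median over all genes moved up by 0.26 in the infarct, 0.19 in the border and 0.13 in the remote zone, and the numbers of members lower became 5, 3 and 2. Of all genes called in the infarct zone, 54.5% were lower with TMM factors and 32.9% with library size alone. The corresponding shares were 55.8% and 35.9% in the border zone and 54.9% and 31.4% in the remote zone.

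Among the small heat shock proteins, Cryab showed the largest infarct zone difference. Its level in Sham infarct zones ran from 1206 to 2943 CPM (median 2531), and in MI from 241.3 to 1718 CPM (median 757). Apart from Sham replicate 5, which was the lowest Sham library, all Sham values lay above all MI values. The log2 difference was -1.54 ± 0.46 (SE), a fall to 0.344 of the Sham level (adjusted p = 0.015, edgeR). The border zone difference was -1.41 ± 0.43 (adjusted p = 0.022), from 2421 ± 587 to 906 ± 516 CPM (mean ± SD, n = 6 each). Remote zone levels of Sham and MI overlapped at 2373 to 3539 and 1464 to 2748 CPM, and the difference of -0.42 ± 0.16 did not pass the test (adjusted p = 0.074). Without Sham replicate 5 it did (-0.48, adjusted p = 0.021).

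Hspb6, a small heat shock protein of muscle, showed differences of similar size. Infarct zone levels were 404 to 1069 CPM in Sham (median 869) and 74.2 to 725 CPM in MI (median 226), and the groups overlapped because MI replicates 1 and 3 lay above Sham replicate 5. The log2 difference of -1.502 ± 0.52 passed the test (adjusted p = 0.030). That call was lost, with adjusted p up to 0.062, in the fits without Sham replicate 1, 2 or 3 or without MI replicate 4 or 5. Hspb6 in the border zone fell by 1.51 ± 0.43 on the log2 scale (adjusted p = 0.016), and this call held in all 12 fits that left out 1 library. The remote zone difference was -0.45 ± 0.17 (adjusted p = 0.065). It passed without Sham replicate 5 (-0.52, adjusted p = 0.013) and also without MI replicate 1 or MI replicate 2.

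Hspb7, which binds filamin C and restrains actin assembly at the thin filament, was lower in all 3 zones. Remote zone Sham libraries held 1428 to 2013 CPM (median 1557) and MI libraries 945 to 1317 CPM (median 1078). The groups did not overlap. The difference was -0.54 ± 0.12 on the log2 scale (adjusted p = 0.0069), and it passed in all 12 fits that left out 1 library. It was -1.13 ± 0.35 in the infarct zone (adjusted p = 0.018) and -1.08 ± 0.37 in the border zone (adjusted p = 0.035). The border zone call was lost without any of Sham replicates 1, 3, 4 and 6 and MI replicates 1 and 3, with adjusted p up to 0.068.

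Hspb1 (HSP27), which caps actin filaments and is expressed in many cell types, had the smallest difference of the 4 in the infarct zone. Sham levels ran from 203 to 287 CPM (median 249) and MI levels from 107 to 246 CPM (median 183), and MI replicates 1 and 3 lay inside the Sham range. The log2 difference was -0.48 ± 0.18 (adjusted p = 0.043). Of the 12 fits that left out 1 library, 3 kept the call, namely those without Sham replicate 5, MI replicate 1 or MI replicate 3, and the adjusted p reached 0.092 elsewhere. Border zone Hspb1 fell from 264 ± 46.9 to 162 ± 54.02 CPM (-0.70 ± 0.22, adjusted p = 0.025), a call that was lost without Sham replicate 1, Sham replicate 6 or MI replicate 3 (adjusted p up to 0.056). Remote zone levels of 236 to 423 and 192 to 319 CPM gave -0.30 ± 0.16 (adjusted p = 0.19).

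Hspa8, the constitutive HSP70 that serves general folding and chaperone-mediated autophagy, was lower in the infarct and border zones. Its infarct zone levels were 1179 to 2214 CPM in Sham (median 1385) and 858 to 1190 CPM in MI (median 992). Only Sham replicate 1 lay within the MI range, while Sham replicates 5 and 6 were the highest libraries. The log2 difference was -0.63 ± 0.18 (adjusted p = 0.014), and it was -0.50 without Sham replicate 5 (adjusted p = 0.015). The border zone difference was -0.54 ± 0.18 (adjusted p = 0.033). That call was lost without Sham replicate 6 or without any MI replicate other than 5 (adjusted p up to 0.072). The remote zone difference was -0.27 ± 0.18 (adjusted p = 0.29).

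Hspa1b, a stress-inducible HSP70, was measured at low levels of 50 to 291 counts per library, and its reads are hard to tell from those of the near-identical Hspa1a, so its values are uncertain. Remote zone levels were 4.92 to 12.1 CPM in Sham (median 7.92) and 3.25 to 6.22 CPM in MI (median 4.91). The groups overlapped in Sham replicates 1 and 2. The difference of -0.75 ± 0.25 passed the test (adjusted p = 0.046), with 4 of the 12 fits that left out 1 library keeping the call, those without Sham replicate 1, 2 or 5 or MI replicate 2, and adjusted p up to 0.11 elsewhere. In the infarct zone the difference was -0.58 ± 0.24 (adjusted p = 0.064), which became -0.66 without Sham replicate 5 (adjusted p = 0.028). At the border it was -0.39 ± 0.38 (adjusted p = 0.42), and MI replicate 2 held the highest level of all 54 libraries there, 13.1 CPM.

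Hsp90aa1, the stress-inducible cytosolic HSP90, passed the test in the infarct zone and in neither of the other zones. Sham infarct zones held 488, 581, 542, 769, 1088 and 893 CPM in replicates 1 to 6, and MI infarct zones 526, 319, 448, 425, 356 and 397 CPM. MI replicate 1 was the only MI library to reach the Sham range. The difference was -0.83 ± 0.22 on the log2 scale (adjusted p = 0.0080) and -0.68 without Sham replicate 5 (adjusted p = 0.0073). At the border it was -0.20 ± 0.22 (adjusted p = 0.47), and -0.0036 without Sham replicate 5. The remote zone difference was 0.10 ± 0.20 (adjusted p = 0.74), with MI libraries at 395 to 683 CPM inside the Sham range of 346 to 704 CPM.

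Dnajb1, the J-domain partner of inducible HSP70, did not pass the test in any zone. Sham levels were widely spread, at 34.4 to 86.3 CPM in the infarct zone, and Sham replicates 5 and 6 were the highest Sham libraries in every zone. MI levels were 44.5 to 55.9 CPM in that zone. Log2 differences were -0.08 ± 0.21, -0.12 ± 0.23 and -0.17 ± 0.20 in infarct, border and remote zone libraries (adjusted p of 0.76, 0.70 and 0.57). Without Sham replicate 5 the infarct and border differences were 0.12 and 0.16, and with library size alone 0.17 and 0.0524, so their sign depended on these choices.

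Bag3 had the smallest adjusted p of the members in every zone. Remote zone Sham libraries ran from 222 to 312 CPM (median 244) and MI libraries from 126 to 166 CPM (median 139). The groups were separated by a clear gap. The log2 difference was -0.83 ± 0.10, a fall to 0.562 of the Sham level (adjusted p = 0.00058). Infarct and border zone differences were -0.86 ± 0.21 and -1.06 ± 0.23 (adjusted p of 0.0059 and 0.0051). In those zones Sham replicate 5 held 89.8 and 90.7 CPM and was the only Sham library within the MI range of 67.9 to 122 and 55.2 to 104 CPM. All 3 calls held in each of the 12 fits that left out 1 library.

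**Figure D2:**
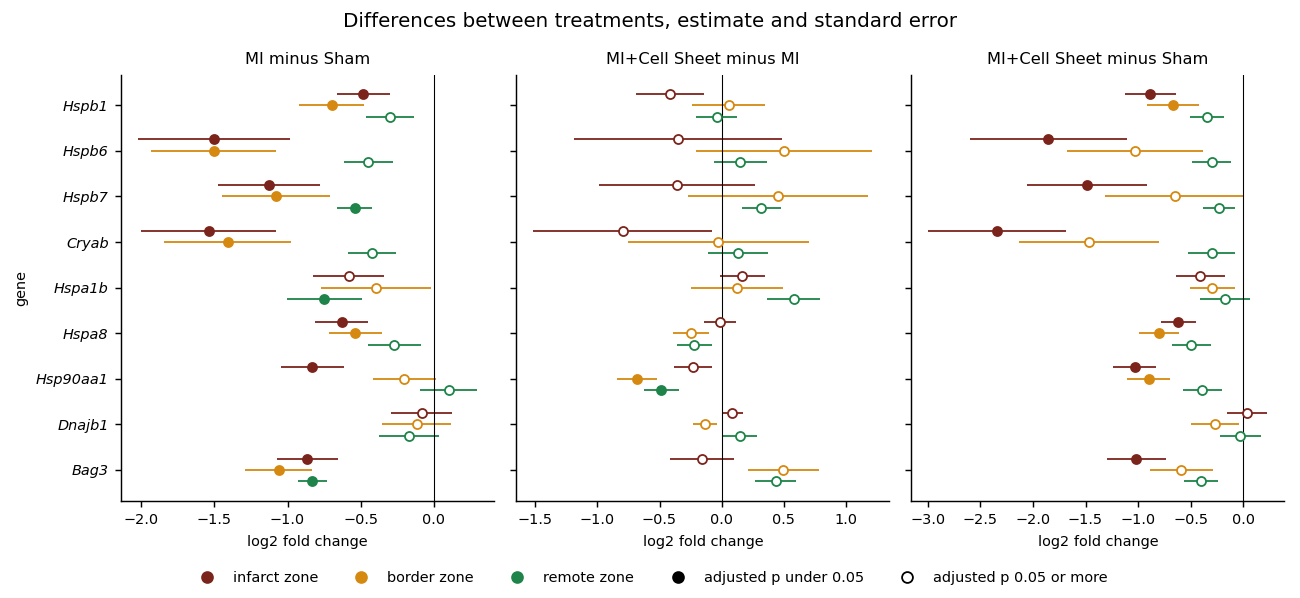
Log2 fold change of each member with its standard error in 3 comparisons, coloured by zone and filled where the adjusted p was under 0.05. In MI against Sham, Bag3 sits at -0.86, -1.06 and -0.83 by increasing distance from the infarct, while Cryab sits at -1.54, -1.41 and -0.42 in the same order.

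Whether the effect of infarction differed between the infarct and remote zones was tested with an interaction term in a fit that had a block for each animal. It passed for 3 members, all with a more negative difference in the infarct zone, where 15.3% of 16445 genes were called in that direction. The difference between the zones' effects was -1.41 ± 0.46 for Hspb6 (adjusted p = 0.034), -1.37 ± 0.43 for Cryab (adjusted p = 0.028) and -0.92 ± 0.20 for Hsp90aa1 (adjusted p = 0.0052). These 3 also passed without Sham replicate 5, at -1.52, -1.49 and -0.90. Bag3 gave -0.02 ± 0.21 (adjusted p = 0.96), so that its infarct and remote zone effects differed by less than their error. Hspb7 gave -0.77 ± 0.32 (adjusted p = 0.083) and Hspa8 -0.36 ± 0.16 (adjusted p = 0.11).

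The next comparison asked what the cell sheet changed in infarcted hearts. In the infarct zone none of the 9 members passed the test in MI+Cell Sheet against MI (edgeR), and 0 of them had an unadjusted p under 0.05. DESeq2 likewise called 0 members. Over all 16196 genes tested the share called was 0%, with 1341 genes at an unadjusted p under 0.05 and 59 called by DESeq2. The spread within the group was wide. Cryab levels in the 6 MI+Cell Sheet infarct zones were 287, 65.8, 143, 190, 754 and 1377 CPM in replicates 1 to 6, and their cardiomyocyte scores were 8.50, 6.59, 6.69, 7.77, 10.5 and 11.8. Replicates 5 and 6 were highest in both. Skeletal muscle marker scores were 3.62 in replicate 2 and 5.74 in replicate 6, against at most 0.83 in the other 4, and their part in these levels was not tested. The differences were -0.80 ± 0.72 for Cryab, -0.35 ± 0.84 for Hspb6 and -0.36 ± 0.62 for Hspb7. Errors were smaller for Hspa8, at -0.01 ± 0.13, and Dnajb1, at 0.09 ± 0.08. Scaled by library size alone, Hspa8 stood at 0.0078.

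At the border 1 member, Hsp90aa1, was lower in MI+Cell Sheet than in MI and none was higher, where 9.48% of 16272 genes were lower and 8.47% higher. Its levels were 395, 250, 331, 310, 395 and 360 CPM in MI+Cell Sheet replicates 1 to 6, and 477, 423, 503, 565, 759 and 541 CPM in MI. The groups did not overlap. The log2 difference was -0.68 ± 0.16, a fall to 0.624 of the MI level (adjusted p = 0.013), and it lay between -0.74 and -0.56 with the call kept in all 12 fits that left out 1 library. Adipocyte marker scores ran from -0.75 to 6.49 in these MI+Cell Sheet libraries (7 of 7 markers detected) and from -0.74 to 3.21 in MI (6 of 7), and their part in the result was not tested. Bag3 differed by 0.50 ± 0.28 (adjusted p = 0.25) at 46.1 to 172 CPM against 55.2 to 104 CPM, and without MI+Cell Sheet replicate 1 by 0.67 (adjusted p = 0.052). Cryab, Hspb6 and Hspb7 of that library lay at 24.27, 11.01 and 16.15 CPM, the lowest of all 54 libraries.

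Remote zone Hsp90aa1 was again the 1 member called, lower in MI+Cell Sheet, and none was higher, where 6.79% of 15374 genes were lower and 10.3% higher. It stood at 349 to 438 CPM (median 379) against 395 to 683 CPM in MI (median 531). The ranges overlapped through MI replicate 1. The difference was -0.48 ± 0.14 (adjusted p = 0.034). This call was kept in 5 of the 12 fits that left out 1 library and lost without MI replicate 3, 4 or 5 or without MI+Cell Sheet replicate 2, 3, 4 or 5 (adjusted p up to 0.080). The members lower in MI than in Sham there were Bag3, Hspa1b and Hspb7. In MI+Cell Sheet against MI they differed by 0.44 ± 0.16 (adjusted p = 0.080), 0.58 ± 0.22 (adjusted p = 0.076) and 0.32 ± 0.16 (adjusted p = 0.17). Both comparisons use the same MI libraries, so they are not independent. Bag3 levels in MI+Cell Sheet were 105 CPM in replicate 1 and 186 to 253 CPM in the other 5, all 5 above the highest MI library.

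The remote zone result depended on that library. Without MI+Cell Sheet replicate 1, the members higher in MI+Cell Sheet were Bag3 (0.56, adjusted p = 0.00082), Hspb7 (0.41, adjusted p = 0.019) and Hspa1b (0.64, adjusted p = 0.031), and Hsp90aa1 was lower (-0.50, adjusted p = 0.013). The share of genes called then came to 20.8% in each direction. With library size alone, the lower share of all genes called went from 52.8% to 42.7% in the border zone and from 39.8% to 51.5% in the remote zone, and Hsp90aa1 was the 1 member called in each. That animal's remote zone had a fibroblast score of 10.7 against 7.67 to 9.07 in the other 5, and a macrophage score of 6.63 against 4.58 to 5.53. The effect of the sheet was not shown to differ between zones for any member. The interactions of the border with the infarct zone and of the border with the remote zone called 0 of 9 members, also at an unadjusted p under 0.05 and in DESeq2, and 0% of 17275 and 0% of 16784 genes. DESeq2 called 353 and 1081 genes there, and 2012 and 3430 had an unadjusted p under 0.05 in edgeR. Hsp90aa1 gave -0.43 ± 0.20 (border minus infarct zone, adjusted p = 0.44) and -0.18 ± 0.16 (border minus remote zone, adjusted p = 0.54).

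Set against Sham, MI+Cell Sheet hearts had 7 members lower and none higher in the infarct zone, where 29.2% of 15687 genes were lower and 28.6% higher. Border zones had 3 members lower and none higher, against 23.2% and 20.4% of genes. Remote zones had 0 members called by edgeR or by DESeq2, with 2 at an unadjusted p under 0.05, and 0.0066% of genes were called. Over all 15157 genes, 1520 had an unadjusted p under 0.05 and DESeq2 called 180. These comparisons share the Sham libraries with those of MI against Sham and are not independent of them. In infarct zones Hsp90aa1 held 291 to 442 CPM, below all Sham libraries, which started at 488 CPM (-1.03 ± 0.20, adjusted p = 0.0014). Cryab was at 65.8 to 1377 CPM against 1206 to 2943 CPM (-2.34 ± 0.66, adjusted p = 0.010), and Bag3 at 56.4 to 146 CPM against 89.8 to 201 CPM (-1.02 ± 0.28, adjusted p = 0.0091). Hspb1 and Hspa8 were lower by 0.89 ± 0.24 and 0.62 ± 0.16 on the log2 scale. Hspb6 (-1.86 ± 0.75, adjusted p = 0.049) kept its call only without Sham replicate 5 or MI+Cell Sheet replicate 6, and Hspb7 (-1.49 ± 0.57, adjusted p = 0.040) in 4 of 12 such fits, those without Sham replicate 5 or MI+Cell Sheet replicate 2, 5 or 6.

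The border zone members lower than in Sham were Hsp90aa1 (-0.90 ± 0.20, adjusted p = 0.0039), Hspa8 (-0.80 ± 0.19, adjusted p = 0.0047) and Hspb1 (-0.67 ± 0.25, adjusted p = 0.045). Hsp90aa1 ran from 250 to 395 CPM against 477 to 1030 CPM, and Hspa8 from 779 to 1097 CPM against 1266 to 2399 CPM. For these genes the groups did not overlap. The Hspb1 call was lost without Sham replicate 1, 3, 4 or 6 or without MI+Cell Sheet replicate 2, 5 or 6 (adjusted p up to 0.093). Cryab (-1.47 ± 0.67, adjusted p = 0.092) passed without MI+Cell Sheet replicate 1 (-1.21, adjusted p = 0.025) or 3, and Bag3 (-0.59 ± 0.30, adjusted p = 0.13) without Sham replicate 5 (-0.72, adjusted p = 0.041). With library size alone the median over all genes moved up by 0.26 in the infarct and 0.27 in the border zone, the members lower numbered 4 and 1, and the lower share of genes called went from 50.5% to 33.7% and from 53.2% to 28.8%.

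The small heat shock proteins varied together over the libraries. Pearson's r of log2 CPM over the 54 libraries was 0.983 between Hspb6 and Cryab, 0.972 between Hspb7 and Cryab and 0.924 between Hspb1 and Cryab, and Bag3 correlated with Cryab at 0.887. Libraries of the same heart are not independent, so these are descriptions. Of 13283 genes compared, the most alike were Actc1 for Hspb6 (0.993), Lmod2 for Hspb7 (0.992), Tnnt2 for Cryab (0.990) and Crym for Hspb1 (0.921), of which Actc1, Lmod2 and Tnnt2 encode sarcomere proteins. Hspa8 and Hsp90aa1 correlated with each other at 0.801 and with Cryab at 0.468 and 0.383. The gene most like Hsp90aa1 was Dnaja1 (0.871), a J-domain co-chaperone, and for Hspa8 it was Tank (0.857). R3hdm2 was most like Bag3 (0.975), Gcsam most like Dnajb1 (0.792) and Tmem185b most like Hspa1b (0.613), with Hsph1, an HSP110 gene, next for Hspa1b at 0.605.

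**Figure D3:**
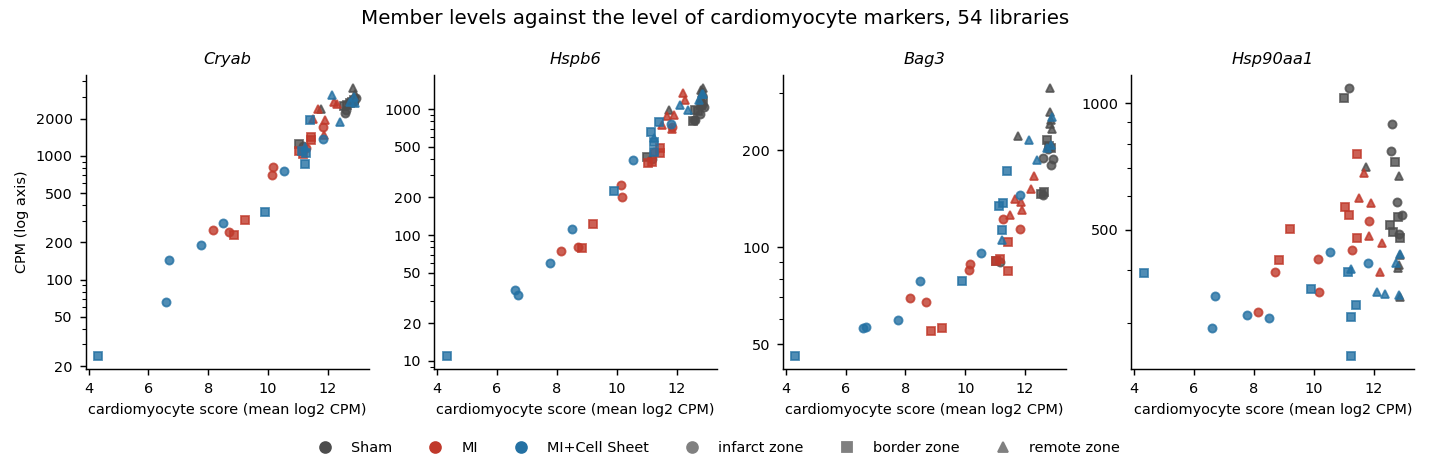
Levels of Cryab, Hspb6, Bag3 and Hsp90aa1 (CPM, log axis) against the cardiomyocyte score (mean log2 CPM of 12 markers) in the 54 libraries, coloured by treatment and shaped by zone. Cryab and Hspb6 form a narrow band that ends at the border zone library of MI+Cell Sheet replicate 1 with a score of 4.33, whereas Hsp90aa1 levels spread widely at similar scores.

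Expressed against these markers (log2 CPM minus the score), every member measured stood higher in MI and MI+Cell Sheet infarct zones than in those of Sham. The mean of Hspb6 was -2.83 ± 0.17 in Sham, -2.29 ± 0.20 in MI and -1.78 ± 0.29 in MI+Cell Sheet infarct zones (SD, n = 6 each). Cryab gave -1.34 ± 0.20, -0.72 ± 0.36 and -0.50 ± 0.64 in the same order, Hspb7 -2.40 ± 0.38, -1.27 ± 0.77 and -0.62 ± 0.78, and Bag3 -5.17 ± 0.28, -3.57 ± 1.09 and -2.38 ± 1.59. Means in that order were -1.92, -0.07 and 1.32 for Hspa8 and -3.04, -1.38 and -0.20 for Hsp90aa1. They were -6.84, -4.39 and -2.91 for Dnajb1, -9.72, -7.81 and -6.22 for Hspa1b, and -4.55, -2.62 and -1.68 for Hspb1. Remote zone Bag3 stood at -4.70 ± 0.39 in Sham, -4.76 ± 0.19 in MI and -4.81 ± 0.31 in MI+Cell Sheet. This quantity rises wherever the score falls by more than a gene's own level does, also where that level is lower. In infarct zones the mean score was 12.49 in Sham, 10.04 in MI and 8.65 in MI+Cell Sheet.

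With the cardiomyocyte score as a covariate, 0 members passed in MI against Sham in the infarct zone, where 670 genes were called in place of 7866. The score and the treatment vary together there and cannot be told apart. Hspa8 (-0.64) and Hsp90aa1 (-0.79) kept their size with adjusted p of 0.16, while Cryab, Hspb6 and Hspb1 came to 0.08, 0.28 and 0.10. Hspa8 was the 1 member called in the border zone (-0.76, adjusted p = 0.044), where 1017 of 15641 genes were called. Remote zone Bag3 (-0.64, adjusted p = 0.0035), Hspa8 (-0.69, adjusted p = 0.016) and Dnajb1 (-0.75, adjusted p = 0.018) were lower, and Hspb7 was not called (-0.38, adjusted p = 0.077), where 2418 of 15294 genes were called. Sham replicate 5 had the lowest Sham score there and the highest Hspa8 and Dnajb1 levels of that zone (2440 and 68.7 CPM). Without that library and without the covariate, Bag3, Hspa8 and Dnajb1 differed by -0.86, -0.12 and -0.0039. The covariate fit was not repeated without it, so the Hspa8 and Dnajb1 calls may depend on that library. For MI+Cell Sheet against MI in the border zone, Hsp90aa1 stayed lower with the covariate (-0.69, adjusted p = 0.0083), and Bag3 (0.60, adjusted p = 0.0046) and Hspb6 (0.58, adjusted p = 0.0069) were higher. All genes called there numbered 4748 of 16272 with the covariate and 2922 without it, so the number of members called rose together with that of all genes. In this border zone fit MI+Cell Sheet replicate 1 had a score of 4.33, against 8.85 or more in the others, and the fit was not repeated without it. Without that library and without the covariate, Hsp90aa1, Bag3 and Hspb6 differed by -0.72, 0.67 and 0.77 (edgeR, adjusted p of 0.015, 0.052 and 0.26). No member was called in the remote zone, with Hsp90aa1 at -0.41 (adjusted p = 0.075), where 1936 of 15374 genes were called.

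The other genes of the chaperone system were taken from 10 family lists, in which 82 genes besides the members were tested. In MI against Sham, 49 of the 82 were lower and 14 higher in the infarct zone, 36 lower and 8 higher in the border zone, and 33 lower and 5 higher in the remote zone, beside the shares of all genes given above. Their median log2 differences were -0.40, -0.27 and -0.17. Scaled by library size alone, 27, 23 and 22 were lower and 17, 13 and 6 higher, where 17.4%, 15% and 7.77% of all genes were lower and 35.5%, 26.9% and 17% higher. Without Sham replicate 5, 50, 41 and 36 were lower and 18, 16 and 14 higher, where 34.1%, 31.9% and 23.7% of all genes were higher. A few genes stand in more than 1 list.

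**Figure D4:**
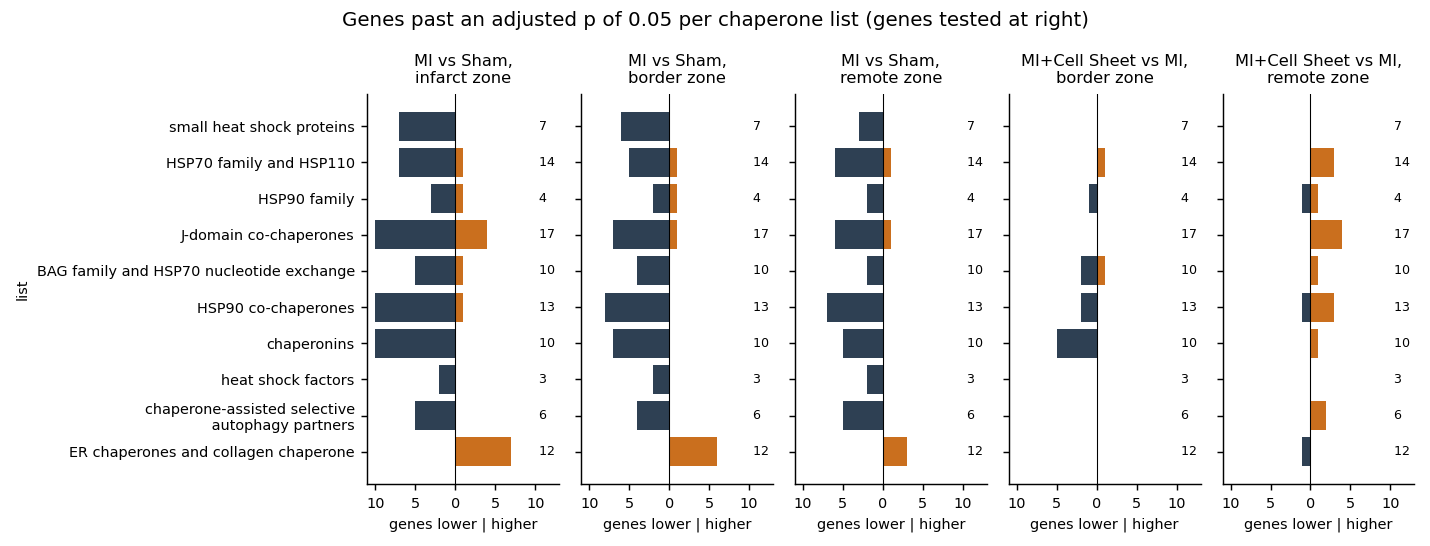
Number of genes lower (left) and higher (right) at an adjusted p under 0.05 in each of 10 chaperone lists, members included, with the number tested at the right of each row, for 5 comparisons. The 10 chaperonins were all lower in MI infarct zones, whereas 7 of 12 endoplasmic reticulum and collagen chaperones were higher and none lower.

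All 7 small heat shock proteins tested were lower in MI infarct zones (median -1.26), as were all 10 chaperonins (median -0.48), the ring-shaped folding machines of the mitochondrial matrix and cytosol. Of each, 5 were lower with library size alone. With TMM factors, 27.2% of all genes were lower in MI infarct zones and 22.7% higher. HSP90 co-chaperones were lower in 10 of 13 cases and higher in 1. Of the HSP70 and HSP110 genes 7 of 14 were lower and 1 higher, of the HSP90 genes 3 of 4 and 1, of the J-domain genes 10 of 17 and 4, and of the BAG and nucleotide exchange genes 5 of 10 and 1. Heat shock factor genes were lower in 2 of 3 cases. Scaled by library size alone, the numbers lower were 5 for HSP90 co-chaperones, 4 for HSP70 and HSP110, 2 for HSP90, 7 for J-domain, 3 for BAG and nucleotide exchange and 0 for heat shock factor genes. Of all genes 17.4% were lower under that scaling. The list gene with the largest fall among those whose groups did not overlap was Fkbp4, an immunophilin that works with HSP90 on steroid receptors, from 314 ± 64.8 to 109 ± 47.8 CPM in the infarct zone (-1.54 ± 0.27, adjusted p = 0.0011). Chordc1 (-1.15 ± 0.15) and the HSP110 gene Hsph1 (-1.01 ± 0.16) followed. At the border Fkbp4 (-1.39 ± 0.19), Dnaja3 (-1.17 ± 0.22) and Hsph1 (-0.80 ± 0.19) fell most among the list genes besides the members whose groups did not overlap.

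Endoplasmic reticulum chaperones and the collagen chaperone moved in the other direction. In MI against Sham, 7, 6 and 3 of 12 were higher in the infarct, border and remote zones and 0 lower, with medians of 0.61, 0.61 and 0.33, where 22.7%, 18.4% and 11.7% of all genes were higher. Without Sham replicate 5, 10 of 12 were higher in each zone, where 34.1%, 31.9% and 23.7% of all genes were. Serpinh1 (HSP47), which folds procollagen, rose from 481 ± 52.7 to 1374 ± 285 CPM in the infarct zone (2.83-fold, adjusted p = 7.4e-05). P4hb, a subunit of prolyl hydroxylase, rose by 1.13 ± 0.17 there. Hspa2, an HSP70 family gene, was also higher, at 10.3 ± 2.47 against 3.96 ± 0.85 CPM (1.37 ± 0.21). Fibroblast scores were 9.74 to 10.8 in MI and 7.96 to 8.66 in Sham infarct zones (8 of 8 markers detected), and their part in these rises was not tested.

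In the remote zone, 5 of the 6 genes listed for chaperone-assisted selective autophagy, Bag3 among them, were lower in MI (median -0.65), where 14.2% of all genes were lower. With library size alone 4 of the 6 were lower, where 7.77% of all genes were. Flnc, the filamin that Bag3 and Hspb7 bind, fell by 0.90 ± 0.17 (adjusted p = 0.0029) and Synpo2, a Z-disc adaptor, by 0.85 ± 0.13 (adjusted p = 0.0013), and Hsph1 by 0.89 ± 0.15 (adjusted p = 0.0020). In MI+Cell Sheet against MI, Synpo2 was higher in the remote zone (182 ± 34.8 against 85.8 ± 18.5 CPM, 1.07 ± 0.16, adjusted p = 0.0060), as were Flnc (0.86 ± 0.18, adjusted p = 0.012) and the J-domain gene Dnajb5 (0.78 ± 0.12, adjusted p = 0.0060). These 3 were named as the largest rises among the list genes called whose groups did not overlap, so the lack of overlap was a condition of naming them. This comparison and that of MI against Sham use the same MI libraries and are not independent. Smooth muscle and pericyte scores, whose cells also make Flnc and Synpo2, were 5.89 to 7.37 in MI+Cell Sheet and 5.11 to 6.15 in MI remote zones (7 of 7 markers detected), and their part was not tested. Over the 82 list genes, 15 were higher and 2 lower in this comparison, where 10.3% of all genes were higher and 6.79% lower. Without MI+Cell Sheet replicate 1 the numbers were 30 and 12, where all genes called rose from 2623 to 6450, with 20.8% in each direction. Of the endoplasmic reticulum and collagen chaperones 1 of 12 was lower, and 8 of 12 without that library.

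At the border 9 of the 82 list genes (11%) were lower and 2 higher in MI+Cell Sheet than in MI, a lower share close to the 9.48% of all genes, of which 8.47% were higher. They included Bag1, a nucleotide exchange factor of HSP70 (77.4 ± 11.9 against 113 ± 15.6 CPM, -0.55 ± 0.12, adjusted p = 0.0098), and the HSP90 co-chaperones Sugt1 (-0.52 ± 0.08, adjusted p = 0.0019) and Ptges3, or p23 (-0.48 ± 0.10, adjusted p = 0.0064). These were named as the largest falls among the list genes called, besides the members, whose groups did not overlap. Sugt1 was lower in the remote zone too (-0.52 ± 0.09, adjusted p = 0.0072), like Hsp90aa1. Chaperonins were lower in 5 of 10 cases in the border zone and higher in 1 of 10 in the remote zone. In the infarct zone 0 of the 82 list genes were called in MI+Cell Sheet against MI by edgeR.

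Against Sham, MI+Cell Sheet had 48 of the 82 list genes lower and 15 higher in the infarct zone, 41 lower and 7 higher in the border zone, and 0 of either in the remote zone by edgeR. Of all genes, 29.2% were lower and 28.6% higher in the infarct zone, and 23.2% and 20.4% in the border zone. Border zone numbers were 23 lower and 13 higher with library size alone, 46 and 15 without Sham replicate 5, and 42 and 4 without MI+Cell Sheet replicate 1. In the infarct zone they were 33 and 19, 53 and 19, and 44 and 14 in the same order. All genes called in either direction numbered 7458, 9954 and 6334 in these border zone fits, against 6955 in the main fit. In the infarct zone they numbered 9415, 11159 and 8091, against 9078. The lower share of genes called with library size alone is given above. The mitochondrial chaperonin genes Hspe1 and Hspd1 fell most among genes whose groups did not overlap, by 2.04 ± 0.28 and 1.77 ± 0.30 on the log2 scale in the infarct zone. Hspb8, the small heat shock protein that binds Bag3, followed, at 135 ± 93.5 against 429 ± 61.7 CPM (-1.67 ± 0.39, adjusted p = 0.0038). Serpinh1, P4hb and Hspa2 were higher there, by 1.85 ± 0.17, 1.27 ± 0.18 and 1.24 ± 0.23. Border zone falls among list genes besides the members whose groups did not overlap were largest for Hspe1 (-1.88 ± 0.19), Grpel1, a nucleotide exchange factor of mitochondrial HSP70 (-1.70 ± 0.29) and Fkbp4 (-1.32 ± 0.16).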

How the data were processed

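Poly(A) RNA libraries from 18 animals and 3 zones (54 libraries) were analysed. The authors aligned reads with STAR to mRatBN7.2 and deposited raw counts per gene, with counter and strand setting not given in the sources used here. The 5 summary lines of each table, 17.0% to 42.8% of its counts, were left out. Libraries held 12699204 to 23397754 counts on genes, so counting error is small beside the spread between animals. The labels call libraries of a group technical replicates, whereas the paper describes separate hearts. If they were technical, p-values would cover that spread alone. No pair of libraries within a group was a duplicate (chi-square per degree of freedom of at least 7.97), and pairs across groups were not compared.

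Groups were compared within zones, 6 against 6, by edgeR 4.0.16 quasi-likelihood tests in R 4.3.3 (TMM, filterByExpr, Benjamini-Hochberg over all genes, threshold 0.05). SE was derived from the F statistic. Levels are CPM with TMM factors, and log2 levels carry an offset of 0.1. Interactions had the animal as a block. The test was checked on simulated data. Alternatives were DESeq2 1.42.0, no filter, library size alone, replicate block, all 18 libraries of a zone, the cardiomyocyte score as covariate and leaving out libraries. All 10 members were named. Other list genes were named up to 3 a direction where the adjusted p was under 0.05 and groups did not overlap, and for each member the genes most alike. List counts without the libraries that stand apart and with library size alone were added after seeing the data. Members and lists were chosen with earlier results of these data known.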

Additional observations from a re-analysis of the deposited data

Results flagged for a closer look

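In 81 groups of 6 libraries, Dixon's test at its critical value for 95% singled out 3 values, where chance gives about 1 group in 20. Cryab was 1242 CPM in the border zone of Sham replicate 5, with the other 5 libraries at 2514 to 2812 CPM. Hspb7 was 2013 CPM in the remote zone of Sham replicate 4, with the others at 1428 to 1632 CPM. Hspa8 was 1209 CPM in the infarct zone of MI+Cell Sheet replicate 5, with the others at 902 to 1017 CPM.

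The effect of infarction differed between the infarct and remote zones (interaction term, edgeR) for Hspb6 at -1.41 on the log2 scale, Cryab at -1.37 and Hsp90aa1 at -0.92. The causes were not tested.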

How the results depend on the processing

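The number of members called changed most with the cardiomyocyte score as a covariate. In MI against Sham it became 0 in the infarct and 1 in the border zone, in MI+Cell Sheet against MI 3 in the border and 0 in the remote zone, and in MI+Cell Sheet against Sham 1 in the infarct zone. All genes called in these fits numbered 670, 1017, 4748, 1936 and 979, against 7866, 6517, 2922, 2623 and 9078 without the covariate. In one fit over all 18 libraries of a zone the number of members called was 4 in the infarct and 3 in the border zone for MI against Sham. All genes called there numbered 8461 and 7281, against 7866 and 6517 in the main fits. Under library size alone the number of members called was 3 in the border zone for MI against Sham, and 4 in the infarct and 1 in the border zone for MI+Cell Sheet against Sham. All genes called there numbered 6554, 9415 and 7458, against 6517, 9078 and 6955 in the main fits. DESeq2 called 5 members for MI against Sham in the remote zone, 2 for MI+Cell Sheet against MI in the remote zone and 5 in the interaction of the infarct with the remote zone. It called 4522, 3717 and 5267 genes in all there, against 3952, 2623 and 4748 by edgeR. Without a filter on low counts 0 members were called for MI+Cell Sheet against MI in the remote zone, and 1774 genes in all. When 1 library at a time was left out, the numbers ranged from 5 to 8, 3 to 6 and 2 to 5 in the infarct, border and remote zones for MI against Sham, 0 to 4 in the remote zone for MI+Cell Sheet against MI, and 5 to 7 and 2 to 4 in the infarct and border zones for MI+Cell Sheet against Sham. The highest number for MI+Cell Sheet against MI in the remote zone came without MI+Cell Sheet replicate 1, where 6450 genes were called in all, against 2623. Which libraries changed a call is given beside each gene. The causes were not tested.

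Replicate numbers were not taken as pairs of samples of different treatments. Deviations of same-numbered libraries correlated at -0.805 to 0.669. Differently numbered libraries were not compared in this way, so these values cannot decide whether replicate numbers mark pairs. With the replicate block 3 members were called for MI against Sham in the border zone, where 4193 genes were called in all, against 6517 without it. For MI+Cell Sheet against MI in the remote zone 0 members were called with the block, and 2 genes in all, against 2623 without it. Dnajb1 stood at 0.0198 with the block for MI+Cell Sheet against Sham in the remote zone.

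Differences that changed sign were these. Scaled by library size alone, Dnajb1 stood at 0.17 and 0.0524 for MI against Sham in the infarct and border zones and at 0.0295 for MI+Cell Sheet against Sham in the remote zone, Hspa8 at 0.0078 and Cryab at 0.0206 for MI+Cell Sheet against MI in the infarct and border zones, and the interactions of Bag3 (infarct minus remote) and Hspa8 (border minus remote) at 0.11 and 0.0987. With DESeq2 Dnajb1 was -0.0018 for MI+Cell Sheet against Sham in the infarct zone. With the covariate, MI against Sham gave Hspb1 0.10, Hspb6 0.28 and Cryab 0.084 in the infarct zone, Hspb7 0.0605 and Cryab 0.0258 in the border zone and Hsp90aa1 -0.40 in the remote zone. MI+Cell Sheet against MI gave Hspb6 0.36, Hspb7 0.12, Hspa8 0.081 and Bag3 0.14 in the infarct zone, Cryab 0.0637 in the border zone and Hspb6 -0.20 and Cryab -0.20 in the remote zone. MI+Cell Sheet against Sham gave Hspb1 0.0506, Hspb6 0.58, Hspb7 0.51, Dnajb1 -0.16 and Bag3 0.0327 in the infarct zone and Hspb6 0.42 and Hspb7 0.68 in the border zone.

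Leaving out 1 library, signs changed within these ranges. Dnajb1 ran from -0.19 to 0.12 and from -0.23 to 0.16 for MI against Sham in the infarct and border zones, and from -0.0612 to 0.20 and from -0.11 to 0.14 for MI+Cell Sheet against Sham in the infarct and remote zones. For MI+Cell Sheet against MI, Hspa8 ran from -0.0675 to 0.0488 and Hspb6 from -1.24 to 0.17 in the infarct zone, Hspb1 from -0.0903 to 0.21, Cryab from -0.42 to 0.24 and Hspa1b from -0.0091 to 0.56 in the border zone, and Hspb1 from -0.12 to 0.0482 in the remote zone. Without MI+Cell Sheet replicate 1, the border minus remote interactions of Hspb7 and Cryab were 0.37 and 0.0556.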
